A study of Mus musculus with 24 samples.

Results

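Matrix metalloproteinases are zinc-dependent enzymes that cut collagens, proteoglycans and other matrix proteins outside the cell. Most are made as inactive precursors, become active when their propeptide is removed, and are held in check by the TIMP proteins. In bone and healing skin they are known for clearing damaged matrix, for opening paths for migrating cells and for the resorption of cartilage and bone. The genes described here are the 10 listed members Mmp2, Mmp3, Mmp9, Mmp10, Mmp11, Mmp12, Mmp13, Mmp14, Mmp16 and Mmp19, chosen by name. All 10 were in the table of 15055 genes and all 10 entered every test.

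RNA was taken from the hind limb digit tip of C57BL/6 mice aged 10 to 12 weeks, a mixed tissue of bone, cartilage, marrow, dermis and epidermis. The digits had been cut at a distal or a proximal level and were collected 12, 14 or 21 days later. This made 6 groups of 4 libraries, distal and proximal at each day. As background, the mouse digit tip regrows after a distal cut and heals without regrowth after a proximal one. No gene or drug was altered in any group, no uncut digit was analysed here, and nothing in the labels tells whether each library is its own animal. The p-values rest on the spread among libraries within a group, pooled over all 6 groups and moderated over genes. They do not rest on the spread of the compared groups alone, and the pooled spread may be technical.

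Markers of osteoblasts, hypertrophic chondrocytes, fibroblasts and wound epidermis were present, while marrow had no marker list of its own. Of the marker genes measured only Oscar was at 0 in any library. Every gene of the table reached at least 20 in some library, so listed genes that were low throughout could not appear. The deposited values behave as normalised and rounded values, so the depth behind them is unknown. Between 2 groups of such bulk tissue, fewer cells of a type and less RNA per cell cannot be told apart.

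Genes Mmp13, Mmp12, Mmp3 and Mmp10 lie in 1 cluster on mouse chromosome 9 (chr9:7272514-7510240, GRCm38, 238 kilobases). Promoter windows from RefSeq (GRCm38.p6, 250 bases before to 50 after the first transcribed base) were matched for 6 of the 10 members, with 7 windows since Mmp12 has 2 starts. Mmp2, Mmp9, Mmp16 and Mmp19 had no entry. Windows were searched on both strands for TGANTCA, the letters bound by AP-1 (dimers of FOS and JUN proteins), for TGTGGTT, bound by RUNX factors, and for the TATA box letters TATAAA. None of the matches overlapped another. AP-1 letters stood in windows of all 4 cluster genes, and in 7.79% of 32544 promoter windows of the genome. RUNX letters stood in Mmp13 alone among the members, and in 5.29% of all windows. TATA letters stood in windows of the same 4 genes, and in 13.6% of all windows. The Mmp11 and Mmp14 windows and the first Mmp12 window held none of the 3 motifs. The 150 bases before the start are shown for the 4 cluster genes because they share the AP-1 letters, and for Mmp11, which lies outside the cluster, as a window with no match. Capitals mark AP-1 and RUNX letters.
Mmp13 (chr9:7272364-7272513, plus strand): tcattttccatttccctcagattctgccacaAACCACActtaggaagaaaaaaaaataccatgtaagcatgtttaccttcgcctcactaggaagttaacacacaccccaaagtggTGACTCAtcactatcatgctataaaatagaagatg
Mmp3 (chr9:7445672-7445821, plus strand): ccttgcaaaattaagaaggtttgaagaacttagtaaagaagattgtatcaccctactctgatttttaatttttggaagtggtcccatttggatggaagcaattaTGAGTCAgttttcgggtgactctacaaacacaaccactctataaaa
Mmp10 (chr9:7502192-7502341, plus strand): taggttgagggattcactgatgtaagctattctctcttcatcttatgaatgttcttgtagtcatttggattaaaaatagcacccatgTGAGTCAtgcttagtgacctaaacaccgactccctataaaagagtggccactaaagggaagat
Mmp12, second start (chr9:7347224-7347373, plus strand): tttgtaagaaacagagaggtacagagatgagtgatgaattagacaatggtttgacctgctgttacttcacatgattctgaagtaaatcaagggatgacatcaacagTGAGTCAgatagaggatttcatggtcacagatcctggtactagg
Mmp11 (chr10:75932503-75932652, minus strand): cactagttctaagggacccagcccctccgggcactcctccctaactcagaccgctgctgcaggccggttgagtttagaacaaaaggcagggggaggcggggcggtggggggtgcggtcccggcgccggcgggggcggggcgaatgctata
The AP-1 letters began 35 bases before the start in Mmp13, 46 in Mmp3, 63 in Mmp10 and 44 at the second start of Mmp12. A match is a description of the letters and not evidence of binding.

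**Figure D1:**
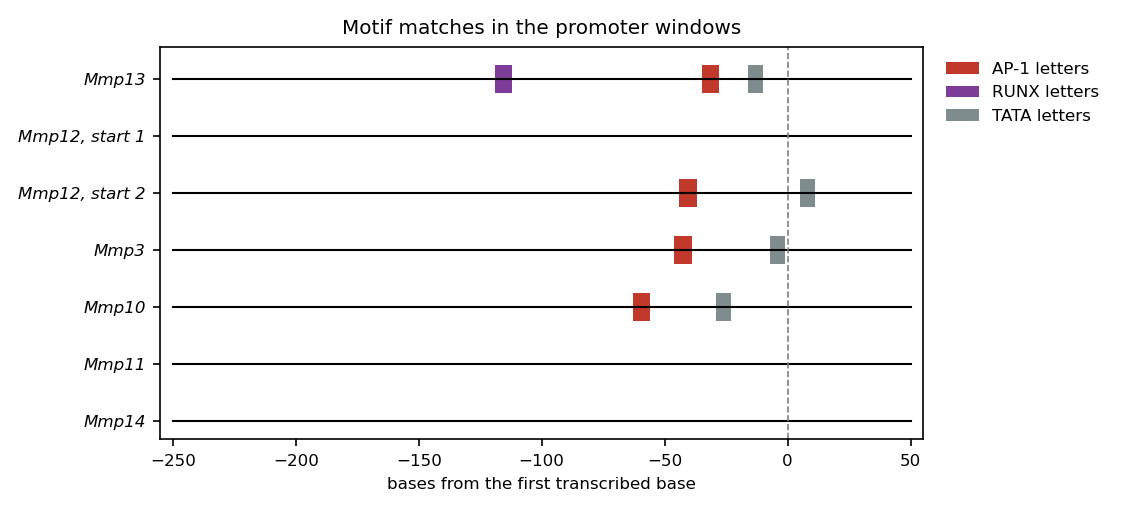
Motif matches in the promoter windows of 6 members, in bases from the first transcribed base (dashed line), with 1 line per window. AP-1 letters stand within 63 bases of the start in 4 windows, and the windows of Mmp11, Mmp14 and the first Mmp12 start hold no match.

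The members spanned a wide range of levels. Per kilobase of the deposited gene length, and averaged over the 24 libraries, Mmp2 was at 2748, Mmp9 at 1779, Mmp14 at 1102 and Mmp13 at 809. Mmp3 stood at 235, Mmp19 at 78.8, Mmp11 at 51.5, Mmp10 at 41.4, Mmp12 at 13.4 and Mmp16 at 11.3. Mmp2 lay above 98.8% of the genes of the table on this scale and Mmp16 above 11.3%. The ratio of the highest to the lowest group mean was 37.6 for Mmp12, 29.6 for Mmp3, 16.6 for Mmp13, 13.2 for Mmp9 and 8.54 for Mmp11. For the other 5 members it lay between 2.17 (Mmp10) and 3.09 (Mmp19). Single libraries moved the largest of these ratios. The Mmp12 ratio was 22.8 without proximal 12 day replicate 4 and 70.5 without distal 21 day replicate 3, so its place above Mmp3 rests on single libraries. The Mmp3 ratio was 19.4 without distal 12 day replicate 1, and the Mmp9 ratio was 23.8 without distal 21 day replicate 4.

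**Figure D2:**
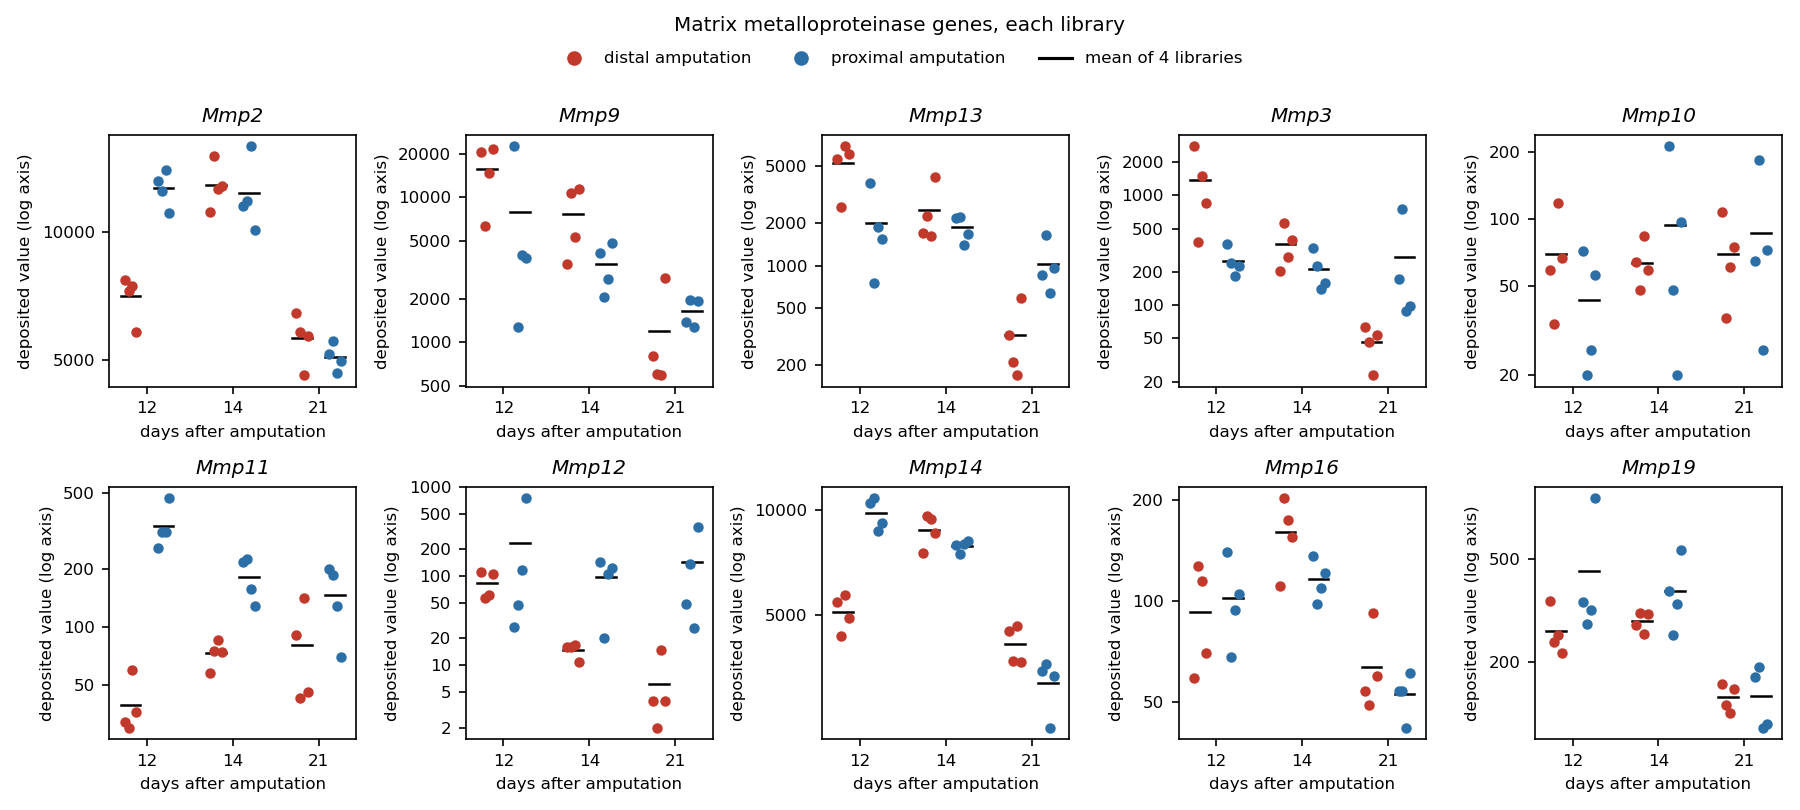
Deposited value of each member in each library (log axes), by day and level, with the mean of 4 libraries as a bar. Mmp3, Mmp9 and Mmp13 have their lowest group mean in distal digits at 21 days, Mmp11 is lower in distal than in proximal digits at 12 days, and Mmp10 overlaps in all groups.

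The make-up of the family is given as a description, with no test. Mmp9, the secreted gelatinase abundant in osteoclasts, made up 41.5% ± 9.69 of the members' summed value per kilobase in distal digits at 12 days, against 20.3% ± 17.6 in proximal digits (SD, n = 4 each). In distal digits the Mmp9 share was 23.6% ± 7.62 at 14 days and 10.7% ± 8.08 at 21 days, while in proximal digits it was 13.9% ± 5.34 and 14.4% ± 2.07. Single libraries weighed on these means, as the share was 11.7% in proximal digits at 12 days without replicate 1 (45.9% in that library). In distal digits at 21 days it was 6.62% without replicate 4 (22.8% in that library). The share of Mmp2, a gelatinase made widely by connective tissue cells, ran the other way in distal digits. It was 22.2% ± 9.41, 44.5% ± 6.54 and 56.6% ± 6.50 there at 12, 14 and 21 days, against 45.7% ± 12.8, 51.7% ± 7.76 and 47.8% ± 5.99 in proximal digits. The distal Mmp2 level itself was 2096, 3815 and 1674 per kilobase at these days, so its share rose after 14 days while its level fell. The collagenase gene Mmp13 took 19.0% ± 3.55, 10.2% ± 3.42 and 3.87% ± 1.73 in distal digits at the 3 days, against 7.91% ± 2.57, 9.99% ± 2.53 and 11.5% ± 2.40 in proximal digits. The summed value per kilobase itself was 10338 ± 2999, 8781 ± 1996 and 2976 ± 431 in distal digits at 12, 14 and 21 days, against 8863 ± 3434, 7030 ± 510.3 and 3224 ± 642 in proximal digits.

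**Figure D3:**
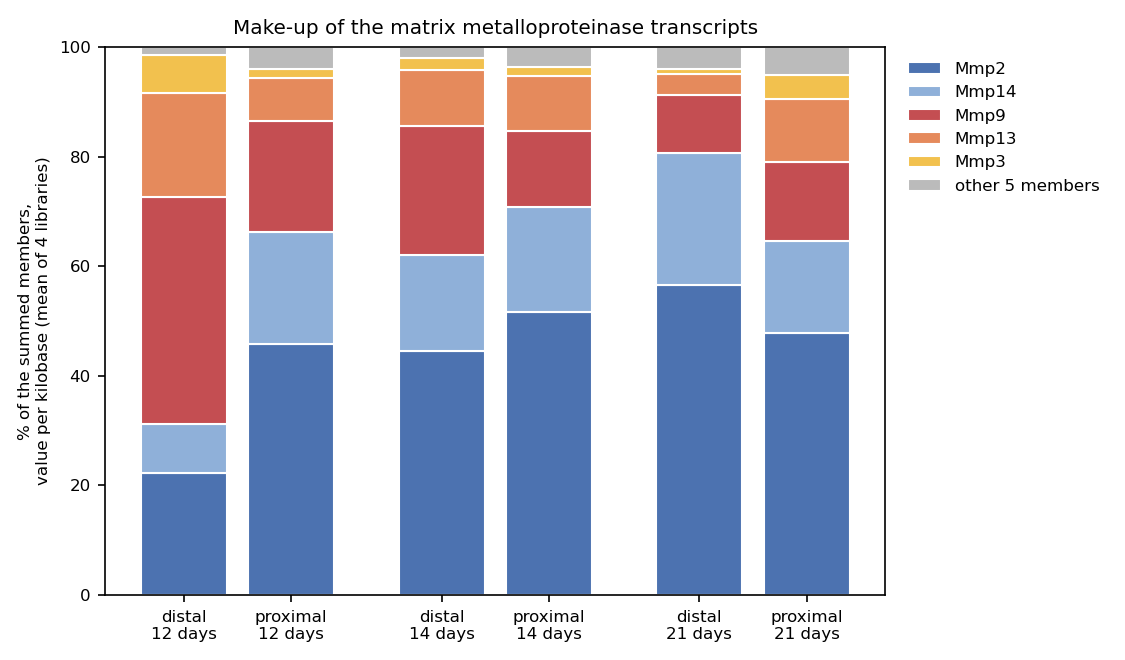
Mean share of each member in the summed value per kilobase of the 10 members, in % (bars stack to 100, n = 4 libraries per group). Mmp9 and Mmp13 together fill most of the distal bar at 12 days, and Mmp2 with Mmp14 fill most of the distal bar at 21 days.

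Between the levels, tests were run with limma on log2(value + 1) over all genes, with Benjamini-Hochberg adjustment and a call under 0.05, and a difference is distal minus proximal. At 12 days Mmp3 and Mmp13 were higher in distal digits (2 of 10 members, where 9.25% of all genes were higher). Mmp2, Mmp11 and Mmp14 were lower (3 of 10, where 11% of all genes were lower). At 14 days 0 members were higher (3.06% of all genes) and Mmp11 alone was lower (2.32% of all genes). At 21 days Mmp14 was higher (1 of 10, where 8.22% of all genes were higher), and Mmp3, Mmp12 and Mmp13 were lower (3 of 10, where 9.43% of all genes were lower). The members' median log2 difference was -0.26 at 12 days, 0.11 at 14 days and -0.43 at 21 days, beside -0.03, 0.00 and -0.05 over all genes. Called members thus stood on both sides at 12 and at 21 days, and Mmp3, Mmp13 and Mmp14 each changed side between these days.

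**Figure D4:**
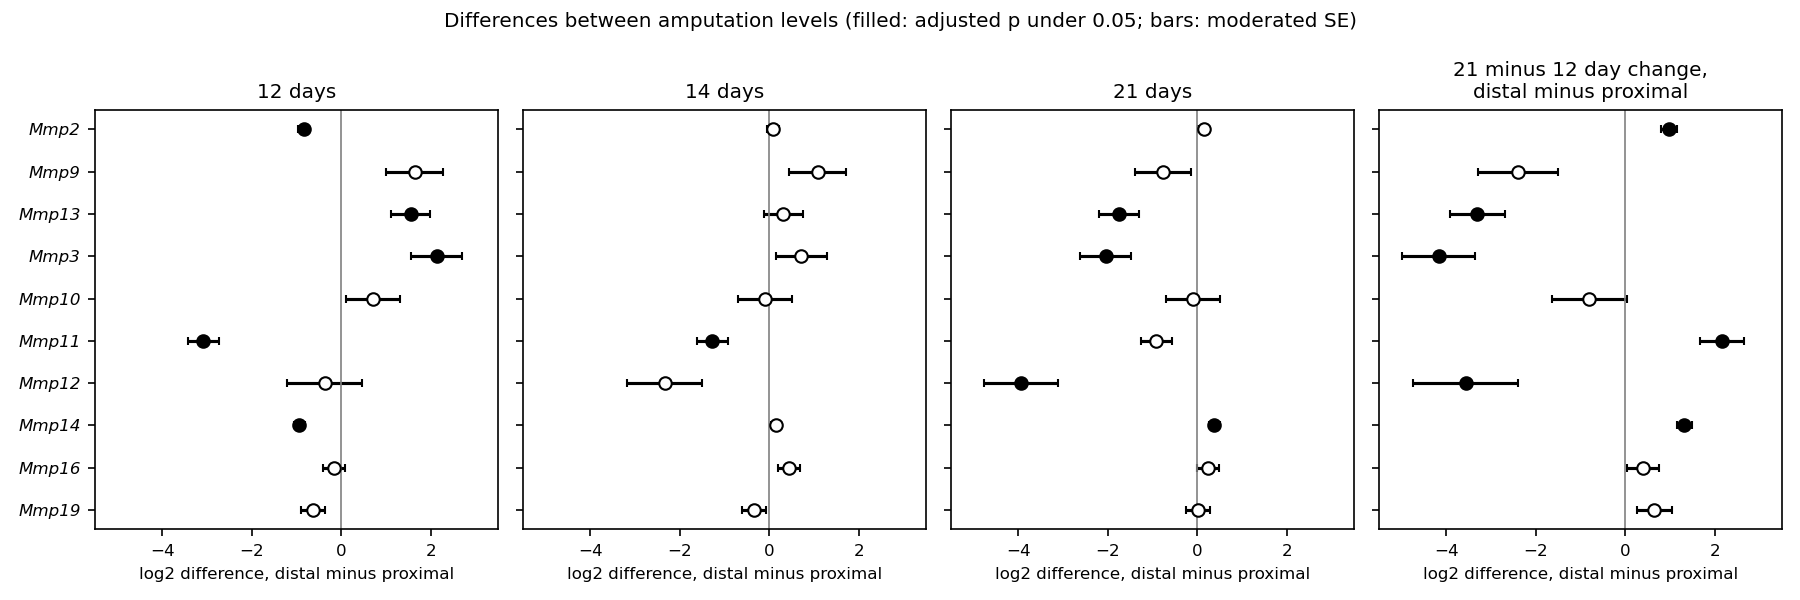
Log2 difference on the log2(value + 1) scale between distal and proximal digits at each day, and how far the 12-to-21-day change of distal digits exceeds that of proximal digits, for each member (points, with limma's moderated SE as bars, n = 4 libraries per group). Filled points have an adjusted p under 0.05. Mmp3 and Mmp13 lie right of 0 at 12 days and left of it at 21 days, and Mmp14 does the reverse.

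Change over time was tested within each level, and in distal digits most of the falls stood between 14 and 21 days. At 14 against 12 days Mmp2, Mmp14 and Mmp16 rose in distal digits (3 of 10, where 11.2% of all genes rose) and Mmp3 fell (1 of 10, where 8.12% fell). At 21 against 14 days 0 rose (13.3% of all genes) and 7 of 10 fell, where 21.5% of all genes fell. The 7 were Mmp2, Mmp3, Mmp9, Mmp13, Mmp14, Mmp16 and Mmp19. At 21 against 12 days 0 rose (8.81% of all genes), and Mmp3, Mmp9, Mmp12, Mmp13 and Mmp19 fell (5 of 10, where 15% fell). These comparisons share libraries with each other.

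Within proximal digits the calls stood at 21 days. At 14 against 12 days 0 members rose and 0 fell by limma, where 7.35% of all genes rose and 7.84% fell. An unadjusted limma p under 0.05 was reached at this step by 2 of 10 members and by 4325 of all 15055 genes. At 21 against 14 days 0 rose (12.5% of all genes), and Mmp2, Mmp14, Mmp16 and Mmp19 fell (4 of 10, where 16.3% fell). At 21 against 12 days 0 rose (12% of all genes), and Mmp2, Mmp11, Mmp14, Mmp16 and Mmp19 fell (5 of 10, where 17% fell). Whether the change from 12 to 21 days differed between the levels was tested directly, as the distal change minus the proximal change. It was higher for Mmp2, Mmp11 and Mmp14 (3 of 10, where 7.42% of all genes were higher) and lower for Mmp3, Mmp12 and Mmp13 (3 of 10, where 7.42% were lower).

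Mmp3 encodes stromelysin-1, a secreted enzyme of broad specificity that also activates other matrix metalloproteinases (chr9:7445822-7455975, plus strand). At 12 days its values were 2816, 378, 1495 and 850 in distal digits, against 361, 241, 185 and 228 in proximal digits. Every distal library was above every proximal one, with distal replicate 2 close to the proximal range. The difference was log2 2.13 ± 0.57 (SE), 4.37-fold higher (limma, adjusted p = 0.0115). The call ended without distal 12 day replicate 1, at log2 1.67 (adjusted p = 0.0523). At 14 days the values were 207, 564, 273 and 390 in distal digits, against 331, 229, 141 and 158 in proximal digits, and the ranges overlapped (log2 0.72 ± 0.57, adjusted p = 0.517).

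At 21 days the order of the levels for Mmp3 was turned round. Its values were 64, 46, 23 and 54 in distal digits, against 172, 752, 89 and 99 in proximal digits, with every distal library below every proximal one. The difference was log2 -2.05 ± 0.57, 4.13-fold lower (limma, adjusted p = 0.0173). It was not called without distal 21 day replicate 3 (log2 -1.75, adjusted p = 0.0587), without proximal 21 day replicate 2, the library at 752 (log2 -1.37, adjusted p = 0.0731), or in a fit of the compared groups alone (adjusted p = 0.0541). Within distal digits Mmp3 fell 24.1-fold between 12 and 21 days (log2 -4.59 ± 0.57, limma, adjusted p = 9.81e-06). Most of that lay after 14 days, with log2 -2.90 ± 0.57 at 21 against 14 days (adjusted p = 0.000465). The step at 14 against 12 days, log2 -1.69 ± 0.57 (adjusted p = 0.0415), was not called in a fit of the compared groups alone (adjusted p = 0.061) or without any of 6 of the 8 libraries, all but replicate 2 of each day. In proximal digits no step was called, with log2 -0.28 ± 0.57 at 14 against 12 days, -0.14 ± 0.57 at 21 against 14 days and -0.42 ± 0.57 at 21 against 12 days (adjusted p = 0.794, 0.883 and 0.619). Between the levels that change differed by log2 -4.17 ± 0.81 (limma, adjusted p = 0.0014), and by -3.50 without proximal 21 day replicate 2.

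Mmp13 encodes collagenase-3, the main mouse interstitial collagenase of bone and cartilage, known from osteoblasts and hypertrophic chondrocytes (chr9:7272514-7283331, plus strand). At 12 days its values were 5663, 2583, 6962 and 6092 in distal digits, against 3831, 750, 1881 and 1544 in proximal digits. Distal replicate 2 lay below proximal replicate 1, and the other distal libraries lay above all proximal ones. The difference was log2 1.55 ± 0.44, 2.94-fold higher (limma, adjusted p = 0.0153), and it was not called without proximal 12 day replicate 2 (log2 1.16, adjusted p = 0.0678). At 14 days the ranges overlapped, with 1689, 2248, 1626 and 4241 in distal digits and 2163, 2202, 1398 and 1665 in proximal digits (log2 0.31 ± 0.44, adjusted p = 0.739).

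By 21 days Mmp13 was at 323, 210, 168 and 586 in distal digits, against 863, 1631, 638 and 968 in proximal digits. All distal libraries lay below all proximal ones, and the difference was log2 -1.75 ± 0.44, 3.37-fold lower (limma, adjusted p = 0.00918). This call was kept without any 1 library. The fall in distal digits between 12 and 21 days was 17.4-fold (log2 -4.12 ± 0.44, adjusted p = 2.45e-06), and at 21 against 14 days it was 7.89-fold (log2 -2.98 ± 0.44, adjusted p = 2.31e-05). The distal change at 14 against 12 days, log2 -1.14 ± 0.44 (adjusted p = 0.0727), was called without distal 12 day replicate 2 (-1.46) or distal 14 day replicate 4 (-1.44). In proximal digits the change was log2 0.10 ± 0.44 at 14 against 12 days (adjusted p = 0.907). It was log2 -0.92 ± 0.44 at 21 against 14 days (adjusted p = 0.123), and called in a fit of the compared groups alone (adjusted p = 0.0272). The proximal change at 21 against 12 days was log2 -0.82 ± 0.44 (adjusted p = 0.171), and it was called without proximal 12 day replicate 2 (log2 -1.21, adjusted p = 0.0437). Between the levels the change differed by log2 -3.31 ± 0.62 (limma, adjusted p = 0.00106).

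Beside these changes, summed hypertrophic chondrocyte markers (5 measured of 6) ranged from 3493 to 14764 in distal digits at 12 days, against 2689 to 12971 in proximal digits, and 0 of 5 were called by limma. Col10a1 was at only 45 to 95 of these values in distal digits and 66 to 425 in proximal digits. Sp7 and Ibsp are on this list and on the osteoblast list, so the lists are not separate. The osteoblast sums (8 of 8 measured) were 111929 to 244862 in distal digits at 12 days, against 191127 to 325156 in proximal digits, and 1 of 8, Phex (log2 1.81 ± 0.55, limma, adjusted p = 0.0231), was higher. The sum is mostly Col1a1, with a mean of 163281 in distal and 226534 in proximal digits, while 7 of the 8 markers had the higher mean in distal digits. The median log2 difference over the list was 1.03, beside -0.03 over all genes. At 21 days the osteoblast sums were 80050 to 116560 in distal digits, against 55792 to 98998 in proximal digits. By limma 0 of 8 were called at 21 days, and of the hypertrophic chondrocyte markers Col10a1 was the 1 higher (log2 3.13 ± 0.65, adjusted p = 0.00254). In distal digits markers of both lists fell beside Mmp13 at 21 days, while Col10a1 rose. No marker of either list fell at 14 against 12 days. At that earlier step 4 of 8 osteoblast markers rose and 0 fell (median log2 1.45). Of the hypertrophic chondrocyte markers 1 of 5 rose and 0 fell (median 1.10), while Mmp13 changed by log2 -1.14 and was not called. Of the osteoblast markers 8 of 8 fell at 21 against 14 days (median log2 -2.76, beside -0.04 over all genes), where 21.5% of all genes fell. At 21 against 12 days 3 of 8 fell (median -1.09), where 15% of all genes fell. Of the hypertrophic chondrocyte markers 3 of 5 fell in each of these comparisons and 1, Col10a1, rose. The distal mean of Col10a1 was 66.5, 101 and 3971.5 at 12, 14 and 21 days. In proximal digits 7 of 8 osteoblast markers fell at 21 against 14 days and 4 of 8 at 21 against 12 days. At 14 against 12 days 4 of 8 rose there and 0 fell (median log2 1.73), beside log2 0.10 for Mmp13. The part of these cells in the Mmp13 values was not tested.

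Mmp9 encodes gelatinase B, secreted by osteoclasts and neutrophils among others (chr2:164940780-164955850, plus strand). At 12 days its values were 20523, 6390, 14770 and 21498 in distal digits, against 22667, 1274, 4023 and 3835 in proximal digits. Proximal replicate 1 was the highest of all 24 libraries, and the other proximal values lay below all distal ones. The difference was log2 1.64 ± 0.63 and not called (limma, adjusted p = 0.0721). It was called without proximal 12 day replicate 1 (log2 2.40, adjusted p = 0.00411) and without distal 12 day replicate 2 (log2 2.02, adjusted p = 0.0406). At 14 days the values were 3447, 10689, 5353 and 11500 in distal digits, against 4109, 2047, 2743 and 4884 in proximal digits (log2 1.08 ± 0.63, adjusted p = 0.349). At 21 days they were 798, 600, 589 and 2789 in distal digits, against 1373, 1945, 1275 and 1939 in proximal digits (log2 -0.77 ± 0.63, adjusted p = 0.431). The ranges of the levels overlapped at each day.

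Within distal digits Mmp9 fell 15.2-fold between 12 and 21 days, with all 21 day libraries below all 12 day ones (log2 -3.92 ± 0.63, limma, adjusted p = 0.000131). At 21 against 14 days the fall was 7.32-fold (log2 -2.87 ± 0.63, adjusted p = 0.00124), and the change at 14 against 12 days was log2 -1.05 ± 0.63 (adjusted p = 0.266). In proximal digits the change at 14 against 12 days was log2 -0.50 ± 0.63 (adjusted p = 0.651). At 21 against 14 days every proximal 21 day library was below every 14 day one, at log2 -1.02 ± 0.63 (adjusted p = 0.238), and this was called in a fit of the compared groups alone (adjusted p = 0.0181). The proximal change at 21 against 12 days was log2 -1.52 ± 0.63 (adjusted p = 0.076), called without proximal 12 day replicate 2 (log2 -2.14, adjusted p = 0.0125). The distal minus the proximal change was log2 -2.40 ± 0.90 and not called (limma, adjusted p = 0.0754). It was called without distal 12 day replicate 2 (-2.79), distal 21 day replicate 4 (-2.92) or proximal 12 day replicate 1 (-3.17).

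Osteoclast marker sums are given beside Mmp9 as a description, with no test of association. The sum of the 7 measured markers of 8 ranged from 9386 to 31766 in distal digits at 12 days, from 6892 to 16198 at 14 days and from 2378 to 5901 at 21 days. In proximal digits the ranges were 6170 to 36579, 5912 to 9879 and 2647 to 4490. Proximal 12 day replicate 1, the library with the highest Mmp9, held the sum of 36579, and replicate 2, with the lowest Mmp9 of its group, held 6170. Other libraries went the other way, as proximal 21 day replicate 2 had the highest Mmp9 of its group (1945) and the lowest sum (2647). In distal 12 day replicate 1, Ctsk alone gave 22397 of the sum of 31766. At 21 against 12 days 7 of the 7 markers fell in distal digits and 5 of 7 in proximal digits, where 15% and 17% of all genes fell. Between the levels 0 of 7 were called at any day by limma. Their median log2 difference was 1.07, 0.91 and -0.23 at 12, 14 and 21 days, beside -0.03, 0.00 and -0.05 over all genes. Mmp9 divided by the marker sum was 0.646 to 0.791 in distal digits at 12 days, against 0.206 to 0.62 in proximal digits, and 0.248 to 0.473 in distal digits at 21 days, against 0.334 to 0.735 in proximal digits. The part of osteoclast content in the Mmp9 values was not tested.

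**Figure D5:**
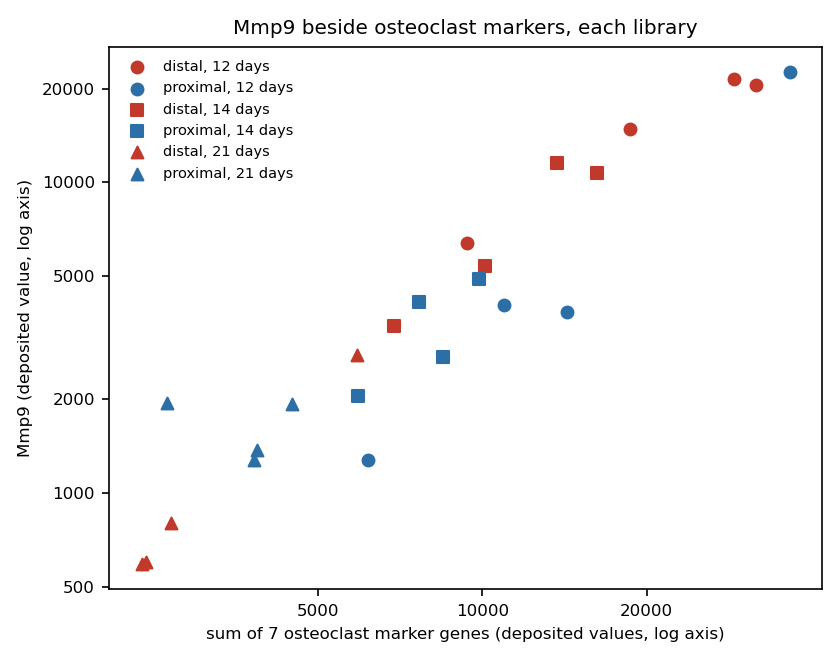
Mmp9 against the sum of 7 osteoclast marker genes in each of the 24 libraries (both log axes, deposited values), coloured by level and shaped by day. The proximal 12 day library with the highest Mmp9 (22667) also holds the highest marker sum (36579), and the 21 day libraries gather at the low end of both.

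The pattern search set out the genes whose 6 group means, on a log2 scale and centred, lay nearest to a member's, among 12486 genes with a mean of at least 50. Nearest to Mmp9 were Dcstamp (root mean square difference 0.144), which is needed for osteoclast fusion, Ccr1, a chemokine receptor (0.238), and Ocstamp, another osteoclast fusion gene (0.265). Dcstamp and Ocstamp are also on the osteoclast marker list summed above, so this is not a separate set of genes. Nearest to Mmp3 was Mmp13 (0.305), followed by Ccr1 (0.406) and Mmp9 (0.445). Nearest to Mmp13 were Mmp3 (0.305), Ccr1 (0.33) and Mmp9 (0.381). Seen from Mmp9, Mmp13 was the 5th nearest gene and Mmp3 the 9th.

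Mmp2 encodes gelatinase A (chr8:92827291-92853420, plus strand), whose precursor is activated at the cell surface by the membrane-bound enzyme of Mmp14. Mmp2 values at 12 days were 7707, 7276, 7463 and 5815 in distal digits, against 13104, 12442, 13894 and 11042 in proximal digits. The groups did not overlap, and the difference was log2 -0.84 ± 0.13, 1.79-fold lower (limma, adjusted p = 8.5e-05). At 14 days Mmp2 was at 11115, 14988, 12578 and 12762 in distal digits, against 11488, 11759, 15843 and 10083 in proximal digits. At 21 days it was at 6445, 5816, 4608 and 5705 in distal digits, against 5171, 5549, 4674 and 4980 in proximal digits. At both of these days the levels overlapped (log2 0.08 ± 0.13 and 0.14 ± 0.13, adjusted p = 0.787 and 0.481).

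In distal digits Mmp2 was therefore highest at the middle day. It rose 1.82-fold at 14 against 12 days (log2 0.86 ± 0.13, limma, adjusted p = 9.1e-05) and fell 2.28-fold at 21 against 14 days (log2 -1.19 ± 0.13, adjusted p = 6.19e-07). In proximal digits the step at 14 against 12 days was log2 -0.05 ± 0.13 (adjusted p = 0.826), and Mmp2 fell 2.38-fold at 21 against 14 days (log2 -1.25 ± 0.13, adjusted p = 4.47e-07). At 21 against 12 days the change was log2 -1.31 ± 0.13 in proximal digits (adjusted p = 1.5e-07). In distal digits it was log2 -0.33 ± 0.13 (adjusted p = 0.0683), called without distal 12 day replicate 4 or distal 21 day replicate 1 and with table totals as the scale (-0.39, adjusted p = 0.0375). The levels differed in the change from 12 to 21 days by log2 0.98 ± 0.18 (limma, adjusted p = 0.000909).

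Mmp14 encodes the membrane-bound MT1-MMP, a pericellular collagenase (chr14:54431612-54445364, plus strand), and its course was close to that of Mmp2. Mmp14 values at 12 days were 5464, 4349, 5709 and 4886 in distal digits, against 10473, 10833, 8734 and 9167 in proximal digits. The groups stood far apart, with a difference of log2 -0.94 ± 0.12, 1.92-fold lower (limma, adjusted p = 1.24e-05). At 14 days its values were 7531, 9615, 9474 and 8585 in distal digits, against 7938, 7469, 8008 and 8181 in proximal digits, which overlapped (log2 0.15 ± 0.12, adjusted p = 0.523). At 21 days the order was turned round, with 4490, 3692, 4638 and 3652 in distal digits, against 3447, 3613, 2371 and 3347 in proximal digits. Every distal library was above every proximal one, by margins that were small at the edge of the ranges. This difference, log2 0.38 ± 0.12 or 1.30-fold higher (limma, adjusted p = 0.0356), was not called without distal 21 day replicate 1 (0.33), distal 21 day replicate 3 (0.32) or proximal 21 day replicate 3 (0.24). It was likewise not called with table totals as the scale (log2 0.23, adjusted p = 0.187) or in a fit of the compared groups alone (adjusted p = 0.105).

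Over time Mmp14 rose 1.73-fold in distal digits at 14 against 12 days (log2 0.79 ± 0.12, limma, adjusted p = 0.000136). It then fell 2.14-fold at 21 against 14 days (log2 -1.10 ± 0.12, adjusted p = 8.6e-07). The distal change at 21 against 12 days, log2 -0.31 ± 0.12 (adjusted p = 0.0677), was called without distal 12 day replicate 2 or distal 21 day replicate 3 and with table totals as the scale (-0.38, adjusted p = 0.0454). The proximal change at 14 against 12 days was log2 -0.31 ± 0.12, with the days apart and no call (adjusted p = 0.0938). In proximal digits it fell at 21 against 14 days (log2 -1.32 ± 0.12, adjusted p = 1.16e-07) and at 21 against 12 days (log2 -1.63 ± 0.12, adjusted p = 2.82e-09). The levels differed in the change from 12 to 21 days by log2 1.32 ± 0.17 (adjusted p = 3.77e-05).

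Fibroblast markers are given beside Mmp2 and Mmp14 as a description. At 12 days the sum of the 7 measured markers was 104404 to 152270 in distal digits, against 265979 to 322253 in proximal digits. Most of it was Col3a1, with a mean of 89735 in distal and 216901 in proximal digits. Pdgfra, Pdgfrb, Col3a1, Postn and Prrx1 were lower in distal digits (5 of 7, where 11% of all genes were lower). At 14 days 2 of 7 were higher and 0 lower, while neither Mmp2 nor Mmp14 was called. At 21 days the sum was 78422 to 97707 in distal digits, against 68998 to 99659 in proximal digits. Lum and Prrx1 were higher (2 of 7), as was Mmp14, while Mmp2 was not called. Within distal digits 6 of 7 rose at 14 against 12 days and 7 of 7 fell at 21 against 14 days. The part of fibroblast content in the values of both members was not tested.

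Mmp16 encodes MT3-MMP, another membrane-bound member (chr4:17852893-18119145, plus strand), and its values were low. They were 59, 127, 115 and 70 in distal digits at 12 days, 111, 202, 174 and 155 at 14 days and 54, 49, 92 and 60 at 21 days. In proximal digits they were 140, 68, 94 and 105, then 136, 98, 109 and 121, and then 54, 54, 42 and 61. The levels overlapped at each day and no difference between them was called (log2 -0.16 ± 0.25, 0.44 ± 0.25 and 0.24 ± 0.25, adjusted p = 0.7, 0.331 and 0.549). Mmp16 fell at 21 against 14 days in distal digits (log2 -1.33 ± 0.25, limma, adjusted p = 0.0003) and in proximal digits (log2 -1.12 ± 0.25, adjusted p = 0.00196). At 21 against 12 days the change was log2 -0.50 ± 0.25 in distal digits (adjusted p = 0.149) and -0.90 ± 0.25 in proximal digits (adjusted p = 0.00938). The distal minus the proximal change was 0.40 ± 0.35 (adjusted p = 0.498), and the proximal change at 14 against 12 days was 0.22 ± 0.25 (adjusted p = 0.598). Its rise in distal digits at 14 against 12 days, log2 0.82 ± 0.25 (adjusted p = 0.0235), was not called without distal 12 day replicate 1 (0.63) or 4 (0.71) or distal 14 day replicate 2 (0.70) or 3 (0.77), nor in a fit of the compared groups alone (adjusted p = 0.0653).

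Mmp11 encodes stromelysin-3, which is activated inside the cell by furin and is known from stromal cells during tissue remodelling (chr10:75923222-75936496, minus strand). At 12 days its values were 32, 30, 60 and 36 in distal digits, against 257, 312, 313 and 468 in proximal digits. No distal library came near the proximal range, and the difference was log2 -3.08 ± 0.34, 8.47-fold lower (limma, adjusted p = 2.3e-06). At 14 days the values were 58, 75, 86 and 74 in distal digits, against 217, 225, 157 and 128 in proximal digits, and again the groups did not overlap. The difference, log2 -1.28 ± 0.34 or 2.42-fold lower (limma, adjusted p = 0.0342), was not called without any 1 of 7 of the 8 libraries, all but proximal 14 day replicate 4 (log2 -1.36 to -1.16, adjusted p up to 0.0899). At 21 days the ranges overlapped, with 91, 43, 142 and 46 in distal digits and 201, 186, 129 and 70 in proximal digits. That difference, log2 -0.92 ± 0.34 (adjusted p = 0.0673), was called without distal 21 day replicate 3 (-1.25) or proximal 21 day replicate 4 (-1.23), and with table totals as the scale (-1.06, adjusted p = 0.0274).

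In proximal digits Mmp11 fell 2.42-fold between 12 and 21 days (log2 -1.27 ± 0.34, limma, adjusted p = 0.00785), while in distal digits the change was log2 0.89 ± 0.34 (adjusted p = 0.0643). The distal change was called without distal 12 day replicate 3 (1.11) or distal 21 day replicate 2 (1.13) or 4 (1.10). At 14 against 12 days the change was log2 0.92 ± 0.34 in distal digits (adjusted p = 0.0661), called without distal 12 day replicate 3 (1.13) and in a fit of the compared groups alone (adjusted p = 0.0264). In proximal digits that step was log2 -0.89 ± 0.34 with the days apart (adjusted p = 0.0853), called in a fit of the compared groups alone (adjusted p = 0.0313). At 21 against 14 days the change was log2 -0.03 ± 0.34 in distal digits, which was 0.03 with median-ratio factors, and -0.38 ± 0.34 in proximal digits (adjusted p = 0.963 and 0.434). The levels differed in the change from 12 to 21 days by log2 2.16 ± 0.49 (adjusted p = 0.00434). The nearest group patterns to Mmp11 were those of Cilp, a cartilage and tendon matrix gene (root mean square difference 0.192), C1qtnf2 (0.366) and Col14a1, a fibril-associated collagen (0.367). The exons of Mmp11 share 155 bases with Chchd10 on the other strand, and without a stated strand setting for the counting, reads in those bases could belong to either gene.

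Mmp12 encodes macrophage elastase (chr9:7344381-7369499, plus strand), and its proximal values were widely spread. Mmp12 values at 12 days were 111, 57, 61 and 106 in distal digits, against 27, 47, 118 and 748 in proximal digits (log2 -0.37 ± 0.84, adjusted p = 0.795). At 14 days they were 16, 16, 17 and 11 in distal digits, against 143, 20, 107 and 123 in proximal digits. The 14 day groups did not overlap, but proximal replicate 2 was close to the distal range and the difference, log2 -2.34 ± 0.84, was not called (adjusted p = 0.103). At 21 days the values were 4, 2, 15 and 4 in distal digits, against 49, 137, 26 and 358 in proximal digits, with no overlap. The difference was log2 -3.94 ± 0.84, 15.4-fold lower (limma, adjusted p = 0.00294), and -3.28 without proximal 21 day replicate 4. Such low values make the fold depend on the pseudocount, and the difference was -2.90 with a pseudocount of 8 (adjusted p = 0.0102).

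Within distal digits Mmp12 fell 13.8-fold between 12 and 21 days (log2 -3.78 ± 0.84, limma, adjusted p = 0.00223; -2.71 with a pseudocount of 8). At 14 against 12 days the distal groups did not overlap and the change was log2 -2.36 ± 0.84 (adjusted p = 0.0511). It was called under 5 of 7 other settings, with adjusted p = 0.0486 with median-ratio factors, 0.0448 with table totals, 0.0491 over genes averaging at least 50, 0.0411 with a replicate block and 0.00119 in a fit of the compared groups alone. The distal change at 21 against 14 days, log2 -1.43 ± 0.84 (adjusted p = 0.198), was called in that last fit (adjusted p = 0.0406). The proximal change was log2 -0.39 ± 0.84 at 14 against 12 days and 0.18 ± 0.84 at 21 against 14 days (adjusted p = 0.802 and 0.897). In proximal digits the change at 21 against 12 days was log2 -0.21 ± 0.84 (adjusted p = 0.878). The levels differed in the change by log2 -3.57 ± 1.18 (adjusted p = 0.0447). This call ended without any 1 of 12 of the 16 libraries (log2 -3.73 to -2.91, adjusted p up to 0.101), with a pseudocount of 8 (-2.50, adjusted p = 0.115) and in a fit of the compared groups alone (adjusted p = 0.0715). Without proximal 12 day replicate 4, the library at 748, it was -4.52 (adjusted p = 0.00511).

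Macrophage markers were all measured. Their sum over 9 genes was 2685 to 3518 in distal digits at 12 days, against 3360 to 4560 in proximal digits, with 3 of 9 lower (Adgre1, C1qa and C1qb). At 21 days, where Mmp12 was lower in distal digits, the sums were 1515 to 2095 in distal digits, against 1790 to 2804 in proximal digits, and 0 of 9 were called by limma. The part of macrophages in the Mmp12 values was not tested. The nearest group patterns to Mmp12 were Cntn2 (root mean square difference 0.813), Ccbe1 and Krt18 (0.85), all farther from it than the 3 nearest genes were from Mmp3, Mmp9, Mmp11 or Mmp13. The exons of Mmp12 share 157 bases with Mmp1b on the other strand.

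Mmp10, which encodes stromelysin-2, a secreted enzyme close to stromelysin-1 (chr9:7502352-7510240, plus strand), was called in none of the 10 comparisons by limma. Its values were 34 to 118 in distal digits at 12 days, 48 to 84 at 14 days and 36 to 107 at 21 days. In proximal digits they were 20 to 72, 20 to 212 and 26 to 184. All group ranges overlapped their neighbours in the order of means. Between levels the differences were log2 0.71 ± 0.60, -0.10 ± 0.60 and -0.09 ± 0.60 at 12, 14 and 21 days (limma, adjusted p = 0.428, 0.95 and 0.935). Within distal digits the changes were log2 -0.02, 0.05 and 0.04 at 14 against 12, 21 against 14 and 21 against 12 days, and within proximal digits they were 0.80, 0.05 and 0.84, each ± 0.60. The sign of the distal change at 21 against 12 days turned with table totals as the scale (-0.03). The distal minus the proximal change at 21 against 12 days was -0.81 ± 0.84 (adjusted p = 0.575). Wound epidermis markers, of a tissue known to make Mmp10, were measured for 8 of 8, with Krt6a higher in distal digits at 12 days (log2 1.24 ± 0.26, adjusted p = 0.00206) and Krt17 and Krt5 lower at 21 days.

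Mmp19, a secreted member found in skin and blood vessels (chr10:128790910-128800824, plus strand), fell late at both levels. Its values were 343, 238, 254 and 216 in distal digits at 12 days, 278, 309, 256 and 306 at 14 days and 164, 136, 127 and 156 at 21 days. In proximal digits they were 342, 281, 318 and 860, then 375, 253, 336 and 544, and then 175, 190, 111 and 115. All 21 day values lay below all 14 day values at each level. The fall at 21 against 14 days was log2 -0.98 ± 0.27 in distal digits (limma, adjusted p = 0.00751) and -1.33 ± 0.27 in proximal digits (adjusted p = 0.000925). At 21 against 12 days it was log2 -1.48 ± 0.27 in proximal digits (adjusted p = 0.000305). In distal digits that change was log2 -0.83 ± 0.27 (adjusted p = 0.0291), and it was not called without distal 12 day replicate 1 (-0.70) or 3 (-0.84) or distal 21 day replicate 2 (-0.80) or 3 (-0.77). At 14 against 12 days the change was log2 0.15 ± 0.27 in distal digits and -0.15 ± 0.27 in proximal digits (adjusted p = 0.755 and 0.763). The distal minus the proximal change at 21 against 12 days was 0.65 ± 0.38 (adjusted p = 0.276). Between levels no day was called (log2 -0.64 ± 0.27, -0.34 ± 0.27 and 0.01 ± 0.27, adjusted p = 0.102, 0.515 and 0.981). Its exons share 789 bases with Tmem198b and 212 with Gm47093 on the other strand.

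Of 13 other genes of the family listed, 4 were measured (Mmp15, Mmp17, Mmp23 and Mmp28), and Mmp23 was the 1 that differed between levels. Mmp23 was at 154, 288, 359 and 209 in distal digits at 12 days, against 472, 305, 432 and 394 in proximal digits, lower by log2 -0.72 ± 0.22 (limma, adjusted p = 0.0212). At 21 days it was at 250, 199, 206 and 289 in distal digits, against 179, 119, 112 and 148 in proximal digits, higher by log2 0.76 ± 0.22 (adjusted p = 0.018). Mmp23 thus had the signs of Mmp14 at both days.

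Of the inhibitors and clearance receptors, 6 of 8 listed were measured. In distal digits at 12 days 1 was higher and 2 lower, where 9.25% of all genes were higher and 11% lower. Timp1, which inhibits most secreted members, was at 1508, 1036, 1440 and 966 in distal digits, against 1040, 430, 424 and 594 in proximal digits (log2 1.07 ± 0.29, limma, adjusted p = 0.0116). Timp2, which also takes part in the activation of the Mmp2 precursor by MT1-MMP, was at 4347, 3894, 4303 and 3673 in distal digits, against 6962, 8262, 7680 and 6298 in proximal digits (log2 -0.84 ± 0.09, adjusted p = 2.04e-06). Timp2 was thus lower together with Mmp2 and Mmp14, and Mrc2, a collagen uptake receptor, was lower by -0.75 ± 0.13 (adjusted p = 0.000283). At 14 days Timp1 was the 1 higher (log2 1.03 ± 0.29) and 0 were lower, and at 21 days Timp2 was the 1 higher (0.36 ± 0.09) and 0 were lower. The distal change at 21 against 12 days minus the proximal one was higher for Timp2 (log2 1.202 ± 0.131) and Mrc2, the sign of Mmp2 and Mmp14, and lower for 0 of 6.

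Of the genes that activate precursors or restrain that step, 13 of 14 were measured. In distal digits at 12 days 4 were higher and 2 lower, where 9.25% of all genes were higher and 11% lower. The higher included Serpinb2 (log2 1.19 ± 0.28) and Serpine2 (0.98 ± 0.19), which inhibit plasminogen activators, and the convertase gene Pcsk5 (0.36 ± 0.12). The 2 lower were Plat, tissue plasminogen activator (-0.66 ± 0.18), and the convertase gene Pcsk7 (-0.21 ± 0.06). At 14 days Pcsk5 and Pcsk6 were higher and 0 were lower, and at 21 days 0 of 13 were called by limma.

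Transcription factors known to act on these genes were measured for 15 of 15. In distal digits at 12 days 6 were higher and 0 lower, where 9.25% of all genes were higher and 11% lower. The largest were the AP-1 genes Fosl1 (log2 1.32 ± 0.25, limma, adjusted p = 0.000751) and Fosb (1.16 ± 0.34, adjusted p = 0.0175), then the ETS genes Etv4 (0.80 ± 0.20) and Etv5 (0.61 ± 0.17). Fosl1 was at 113, 112, 89 and 109 in distal digits, against 35, 48, 40 and 45 in proximal digits. At 21 days Fosl1 was at 159, 175, 205 and 178 in distal digits, against 316, 250, 124 and 124 in proximal digits, which overlapped. Within distal digits Fosl1 rose at 21 against 12 days (log2 0.76 ± 0.25, adjusted p = 0.0301), while Mmp3 and Mmp13 fell. In that comparison 6 of 15 factors rose and 3 fell, where 8.81% of all genes rose and 15% fell. In proximal digits 6 rose and 2 fell, where 12% of all genes rose and 17% fell. At 14 days Runx2 was the 1 higher (1.02 ± 0.25), and at 21 days Etv5 and Fosl2 were higher and Nfkb1 and Ets2 lower.

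Among inducing cytokines and their receptors (10 of 12 measured), 3 were higher and 0 lower in distal digits at 12 days (9.25% and 11% of all genes). Il1b, which encodes interleukin-1 beta, an inducer of stromelysin and collagenase genes, was at 212, 532, 468 and 293 in distal digits, against 13, 13, 9 and 6 in proximal digits. The groups stood far apart, at log2 5.03 ± 0.59 (limma, adjusted p = 4.08e-06). Distal Il1b was at 53, 86, 23 and 13 at 14 days and at 16, 9, 13 and 18 at 21 days. The other 2 higher were Osmr (0.45 ± 0.15) and Il1r1 (0.27 ± 0.07). At 14 days Bsg was higher and Il1rn lower, and at 21 days Bsg was higher and Il1rn and Tnfrsf1a lower. Beside the 12 day values of Mmp3, Mmp9 and Mmp13, the sum of the 4 measured neutrophil markers of 11 was 1270 to 2841 in distal digits, against 204 to 481 in proximal digits. Csf3r was the 1 of 4 called (log2 3.07 ± 0.64). Most of the sum was S100a8 and S100a9, which were not called, and Cxcr2 averaged 96.8 in distal and 95.8 in proximal digits. At 14 days the sum was 186 to 13978 in distal digits, against 493 to 1592 in proximal digits, with 0 of 4 higher and 1 lower. At 21 days the sum was 149 to 407 in distal digits, against 326 to 6059 in proximal digits, with Cxcr2 the 1 called, lower by -0.79 ± 0.25. The part of neutrophils in the values of these members was not tested.

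Of 14 matrix substrates, all measured, 2 were higher and 6 lower in distal digits at 12 days (9.25% and 11% of all genes). The higher included Lamb3, a laminin chain of the epidermal basement membrane (log2 0.55 ± 0.14). The lower included Col2a1 (log2 -2.25) and Acan (-1.65) of cartilage, Eln (-1.35), elastin, and Col3a1 (-1.29), a fibrillar collagen. At 14 days 0 of 14 were called by limma, and at 21 days Col10a1 (log2 3.13), Col4a1 (1.07) and Col4a2 (1.07) were higher and 0 lower. For 8 of 14 the distal change at 21 against 12 days minus the proximal one was higher, and for 0 lower, with a median of 1.295 over the list beside -0.01 over all genes.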

How the data were processed

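Ribosomal RNA-depleted total RNA was sequenced, per the labels' protocols. Reads were handled with cutadapt, STAR 2.5.4b and featureCounts 1.6.3 (Subread) on mm10, per the submitters' processing notes; the strand setting and annotation are not given in the sources used here. The deposited table holds whole numbers per gene and was used as a score, since the values behave as normalised and rounded by the authors. Over 9650 genes above 100 in all libraries, the least variable direction among libraries had a spread of 0.00675 (natural log), where reads alone would give 0.0453, and upper quartiles were 902.5 to 930.5. Counting error and depth are therefore unknown, and no count model was used.

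The test was limma 3.58.1 in R 4.3.3 (group means of all 6 groups, trend, Benjamini-Hochberg over 15055 genes) on log2(value + 1), so folds of low genes are understated. The step was tested on simulated data. Levels between genes were set per kilobase of the table's length. Gene coordinates are GENCODE M21 on GRCm38. All 10 members are given in each comparison, with up to 4 called genes per list by size, any list gene in a count of 5 or fewer, and the 3 nearest patterns for 5 members. Members, lists and tests were chosen with earlier results of these data known. Alternatives were 2 other scalings, a pseudocount of 0.5 or of 8, only genes averaging at least 50, fits of the compared groups alone, a replicate block, and leaving out each library. Results for some listed genes are not reported here.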

Additional observations from a re-analysis of the deposited data

Results flagged for a closer look

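In 7 of 60 groups of 4 libraries, 1 library stood far from the other 3 for its member, on values before log2. Chance alone flags about 1 in 20 groups of normally distributed values, and these values need not be normal, so that rate is a rough guide only. The flagged groups were Mmp3 in proximal digits at 21 days (highest library 752), Mmp9 in distal digits at 21 days (2789) and in proximal digits at 12 days (22667), and Mmp19 in proximal digits at 12 days (860). The other 3 were for Mmp12, at 15 in distal digits at 21 days, 11 in distal digits at 14 days, where it was the lowest, and 748 in proximal digits at 12 days. The Mmp12 and Mmp19 values of 748 and 860 came from the same library, proximal 12 day replicate 4, and the Mmp9 value of 22667 came from replicate 1 of that group.

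The change from 12 to 21 days differed between the levels, distal minus proximal, for 6 members by limma, and for 14.8% of all genes. The log2 difference was 0.98 for Mmp2, 1.32 for Mmp14 and 2.16 for Mmp11. It was -4.17 for Mmp3, -3.31 for Mmp13 and -3.57 for Mmp12, the last with an adjusted p of 0.0447 that passed 0.05 without any 1 of 12 of the 16 libraries. Mmp3 and Mmp13 had opposite calls at 12 and 21 days.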

How the results depend on the processing

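Over the 10 members and 10 comparisons, 7 other settings gave 676 values with the same sign and call, 7 that lost the call, 13 that gained it and 4 that changed sign. The 4 were Mmp2 (-0.00267) and Mmp19 (-0.128) between levels at 21 days and Mmp10 in distal digits at 21 against 12 days (-0.0298) with table totals, and Mmp11 in distal digits at 21 against 14 days with median-ratio factors (0.0283). None of these values was called. Table totals moved the median of all genes to -0.19 between levels at 21 days. In fits of the compared groups alone, 2 members were called between levels at 21 days (12.7% of all genes in that fit) and 1 in proximal digits at 14 against 12 days (11.1% of all genes). That fit gained Mmp9 and Mmp13 in proximal and Mmp12 in distal digits at 21 against 14 days. Those fits left the log2 values unchanged, and their p-values used the spread of the compared groups alone. The cause of the shifts under the other settings was not tested.

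Leaving out 1 library gave 776 values with the same sign and call, 40 that lost the call, 19 that gained it and 45 that changed sign. The number of members called ranged from 4 to 6 between levels at 12 days, 0 to 1 at 14 days and 3 to 5 at 21 days. In the full fit 20.3%, 5.39% and 17.6% of all genes were called in these comparisons. In distal digits the number of members was 2 to 5 at 14 against 12 days, with 2 without distal 12 day replicate 1 or 4 or distal 14 day replicate 3. It was 7 throughout at 21 against 14 days. In the full fit 19.4% and 34.8% of all genes were called at these distal steps. The log2 ranges of values that changed sign were as follows, and none of them was called in the full fit. Between levels at 12 days Mmp12 ranged from -1.003 to 0.578 and Mmp16 from -0.334 to 0.0328. At 14 days Mmp2 ranged from -0.0111 to 0.206 and Mmp10 from -0.67 to 0.45, and at 21 days Mmp10 from -0.55 to 0.37 and Mmp19 from -0.11 to 0.15. In distal digits Mmp10 ranged from -0.31 to 0.28 at 14 against 12 days, from -0.18 to 0.33 at 21 against 14 days and from -0.25 to 0.33 at 21 against 12 days, and Mmp11 from -0.35 to 0.21 at 21 against 14 days. In proximal digits at 14 against 12 days Mmp2 ranged from -0.182 to 0.0352, Mmp9 from -1.11 to 0.27, Mmp12 from -1.03 to 0.56, Mmp13 from -0.29 to 0.49 and Mmp19 from -0.34 to 0.21. At 21 against 14 days Mmp3 ranged from -0.81 to 0.21, Mmp10 from -0.52 to 0.59 and Mmp12 from -0.48 to 0.76, and at 21 against 12 days Mmp12 from -0.87 to 0.74.

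Replicate numbers did not pair the libraries: of 12 same-numbered pairs, 2 had deviations correlated over 0.1 (range -0.27 to 0.21) and 1 was nearest its own number. With the replicate block, 5 members were called in distal digits at 14 against 12 days instead of 4. In that fit 19.1% of all genes were called. Mmp12 was the member added (-2.36, adjusted p = 0.0411 by limma), and no other call changed. That Mmp12 call was also gained under 4 of the other 6 settings. Depth is unknown, so no limit from counting can be given for the low values of Mmp10, Mmp12 and Mmp16.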
